A study of Mus musculus with 8 samples.

Results

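The genes for 10 plasma proteins and apolipoproteins were followed in embryonic mouse kidney. They were Afp, Alb, Ttr, Rbp4, Apoa1, Apoa4, Apoe, Apom, Clu and Kng1. They were chosen by name, with their signals in these pools already known, and every probe set that the platform annotation assigns to 1 of these genes and to no other was taken. This gave 26 of the 45101 probe sets on the array and 10 of the 18194 genes with a probe set of their own. RNA came from whole kidneys of 4 pools of embryos. The E14.5 control pool held 23 embryos, the E14.5 mutant pool 17, the E18.5 control pool 14 and the E18.5 mutant pool 9. Controls were Lim1flox/+; Rarb2-Cretg/+ and mutants Lim1flox/lacZ; Rarb2-Cretg/+, so that both genotypes carried the Cre transgene and 1 floxed allele. The mutants carried a lacZ null allele in every cell and lost the floxed allele only where Cre acts, in the metanephric mesenchyme, while the ureteric bud lineage kept it. The alleles were held on C57BL/6J, 129/SvEv and SJL/J backgrounds. Lim1, now named Lhx1, encodes a LIM homeodomain transcription factor needed for the nephron to form from the mesenchyme.

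Each pool was measured on 2 arrays made from the same RNA. The arrays of a pool are technical duplicates, each condition has 1 biological sample, and no p-value was computed. A ratio is the quotient of 2 pool means of linear signal, and the range that follows it covers the 4 possible pairings of single arrays. A gene was called higher when a probe set had a ratio of at least 2 that also exceeded the fold between the duplicates of either pool, when the mean signal of the higher pool times the ratio exceeded 100, and when both arrays of the higher pool reached their own 40th percentile of signal, which lay between 177 and 193. Array medians lay between 225 and 243, and the duplicates of a pool correlated at r = 0.980 to 0.990 across probe sets. Among the members' probe sets the largest fold between duplicates was 1.61, for Afp in the E14.5 control pool. The targeted gene gave no check of the labels. The brighter Lhx1 probe set read 449 and 517 in E14.5 controls, 563 and 554 in E14.5 mutants, 369.9 and 352 in E18.5 controls and 296 and 333 in E18.5 mutants. The other read 388 and 365, 323 and 289.8, 342 and 382, and 459 and 379 in the same order. Neither was lower in mutants at both stages, and whether these probes lie in the deleted part is not given in the sources used here.

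Most of these proteins are known as products of the hepatocyte, which releases them into blood. Albumin carries fatty acids and steroids, alpha-fetoprotein is its fetal relative, transthyretin carries thyroxine and holds the retinol carrier RBP4 in the circulation, and the apolipoproteins coat lipid particles. Kininogen is the precursor of the kinin peptides. In the kidney, small plasma proteins pass the glomerular filter and are taken up by the proximal tubule through megalin and cubilin. Afp and Alb are neighbouring genes on chromosome 5 with related protein sequences. Their RefSeq promoters (build GRCm38.p6, 250 bases before to 50 bases after the annotated start, both on the plus strand) are shown because the signals of this gene pair had opposite orders between genotypes at E18.5. The windows are chr5:90490464-90490763 for Afp and chr5:90460620-90460919 for Alb, and the capitals mark the letters GTTAAT, the core of the HNF1 motif, searched on both strands.
Afp: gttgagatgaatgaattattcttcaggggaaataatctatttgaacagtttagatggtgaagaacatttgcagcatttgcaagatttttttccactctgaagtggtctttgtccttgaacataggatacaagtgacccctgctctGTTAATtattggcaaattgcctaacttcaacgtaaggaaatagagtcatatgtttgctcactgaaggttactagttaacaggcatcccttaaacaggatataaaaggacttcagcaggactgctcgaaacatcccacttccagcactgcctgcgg
Alb: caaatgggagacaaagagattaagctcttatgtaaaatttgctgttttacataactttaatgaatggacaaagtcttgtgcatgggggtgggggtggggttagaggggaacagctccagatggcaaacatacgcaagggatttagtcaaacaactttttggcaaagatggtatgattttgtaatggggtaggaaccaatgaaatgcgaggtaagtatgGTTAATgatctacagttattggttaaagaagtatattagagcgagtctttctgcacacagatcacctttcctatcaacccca
This core begins 105 bases before the annotated start of Afp and 32 bases before that of Alb. The letters occurred on either strand in 7.10% of 32851 mouse promoter windows of this length. Promoter windows were held for 7 of the 10 genes, and besides Afp and Alb the core was found in 1 of 3 windows of Apoe and in none of those of Apoa1, Apoa4, Apom and Rbp4. Such a match is a description of the letters and not a site of binding. No window was held for Ttr, Kng1 or Clu. An HNF4-selective motif and the full HNF1 motif were also searched, and neither was found in the windows of the 7 genes. They occurred in 0.475% and 0.0091% of all windows.

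At a glance, 9 of the 10 genes had a probe set that reached the minimum signal on both arrays of a pool, and Apoa4 did not. Over the 26 probe sets, 21 did so. From E14.5 to E18.5 in control kidneys, 4 of 10 genes (Afp, Ttr, Apoe and Kng1) were called higher and 0 lower, where 4.75% of all genes were called higher and 2.94% lower. In mutant kidneys over the same interval 4 of 10 (Alb, Ttr, Apoe and Clu) were called higher and 0 lower, against 1.35% and 1.49% of all genes. At E18.5, Afp, Ttr and Kng1 were called higher in control than in mutant kidneys and Alb lower, so 3 and 1 of 10 against 2.23% and 0.165%. At E14.5 no member was called in either direction between genotypes, against 0.121% and 0.0055% of all genes. The genes were picked with these contrasts in view, so the shares describe the choice and test nothing. The 2 stage comparisons and the 2 genotype comparisons also share pools with each other. By brightest probe set the median log2 ratio of the members was 0.63 over time in controls, 0.38 over time in mutants, 0.23 for control over mutant in the E18.5 pools and 0.08 in the E14.5 pools, where all genes gave -0.01, 0.02, -0.03 and -0.01.

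**Figure D1:**
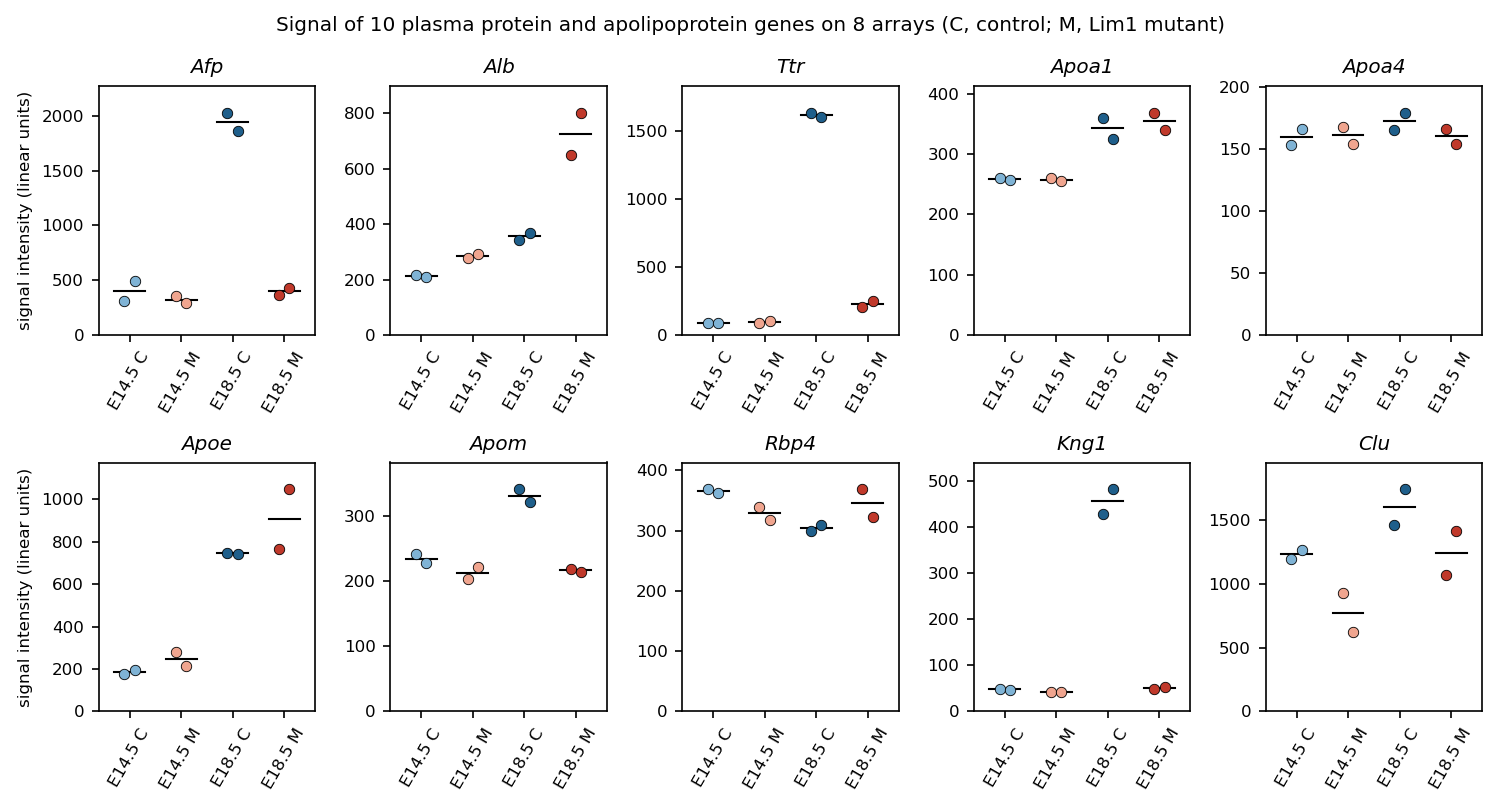
Signal intensity in linear units (vertical axis, a separate scale for each gene) of the brightest probe set of each of the 10 genes on the 8 arrays, grouped by pool (C, control; M, mutant). Points are single arrays and bars are pool means. Afp, Ttr and Kng1 were highest in the E18.5 control pool, Alb in the E18.5 mutant pool, and Apoe was high in both E18.5 pools.

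Afp, the fetal albumin, was high in E18.5 control kidneys alone. Its brightest probe set read 309 and 491 in E14.5 controls, 354 and 289.7 in E14.5 mutants, 2028 and 1858 in E18.5 controls and 366 and 430.5 in E18.5 mutants. The 2 E18.5 control arrays lay above all others, and the E14.5 control arrays overlapped both mutant pools, while the E18.5 mutant arrays lay just above those of E14.5. The ratio of E18.5 to E14.5 was 4.86 (3.79 to 6.56) in controls and 1.24 (1.03 to 1.49) in mutants, and control over mutant at E18.5 was 4.88 (4.32 to 5.54). The stage ratio in controls was 3.93 times that in mutants (2.55 to 6.34 over the 16 combinations of single arrays). Of its 5 probe sets, 4 gave this order, with stage ratios in controls from 4.45 to 5.34 and control over mutant ratios at E18.5 from 4.84 to 5.11. The fifth probe set stayed between 88 and 131 on every array, below the minimum, and had ratios of 1.02 and 0.968. At E14.5 the genotypes overlapped by the brightest probe set, at 1.24 (0.874 to 1.69) for control over mutant. The dimmest of the 4 had 1.22 (1.09 to 1.35) without overlap, with both mutant arrays below the minimum.

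Alb, which encodes the main protein of adult plasma, had the reverse order between genotypes. Its single probe set read 215 and 209 in E14.5 controls, 278 and 293 in E14.5 mutants, 344 and 369.9 in E18.5 controls and 648 and 803 in E18.5 mutants. The 4 pools stood in this order without overlap of their arrays. The ratio of E18.5 to E14.5 was 1.68 (1.60 to 1.77) in controls, below the threshold, and 2.54 (2.22 to 2.89) in mutants, a call. Between genotypes, the mutant pool of E18.5 stood 2.03 times above its control (1.75 to 2.34), a call, and that of E14.5 1.35 times (1.29 to 1.40), none. The E18.5 value sat at the threshold. With array medians made equal the control over mutant ratio was 0.504, and with 50 units added to each signal 0.525, both short of a 2-fold difference. Without the first E18.5 control array it was 0.51 and without the second E18.5 mutant array 0.55, so the call rested on these arrays. The mutant pool was above the control pool under each of these settings.

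**Figure D2:**
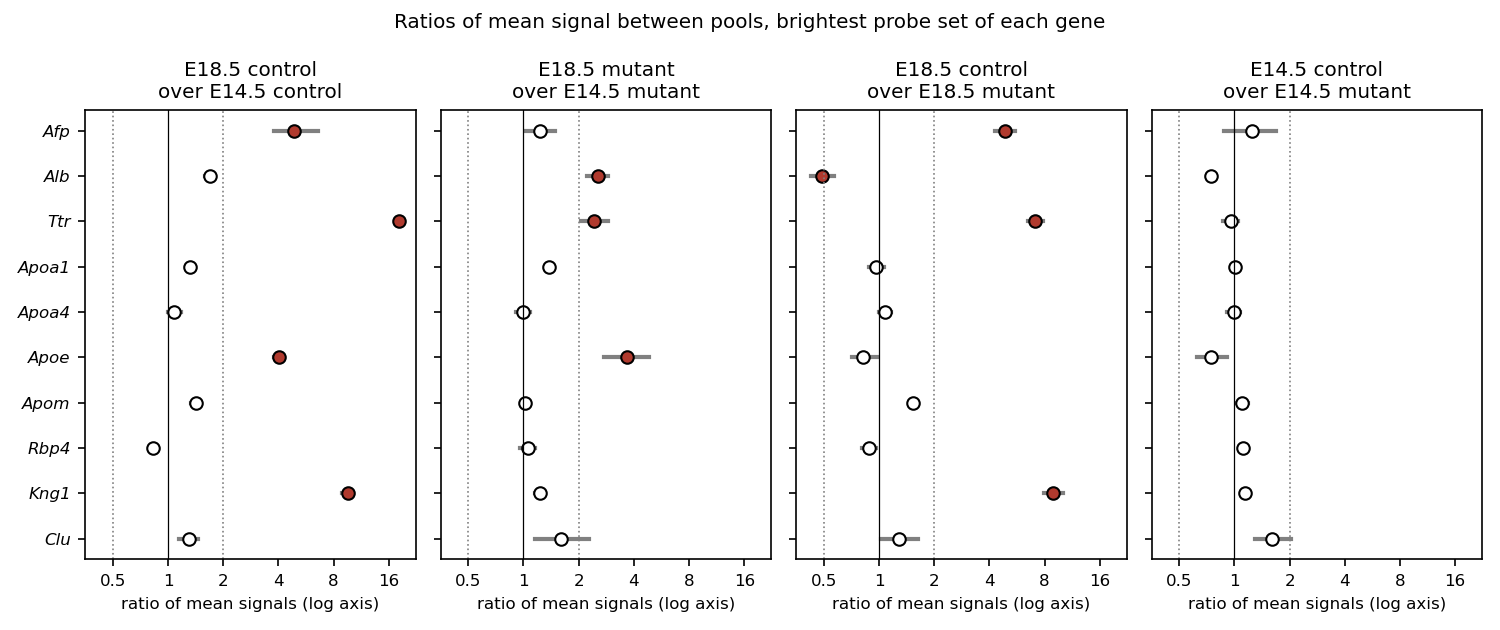
Ratios of pool mean signals on a log axis for the brightest probe set of each gene, 1 panel for each of the 4 comparisons. Points are ratios of means, grey bars span the 4 pairings of single arrays, filled points passed all criteria, and dotted lines mark 2-fold in each direction. Ttr had the highest stage ratio in controls, at 18.1, and Alb was the gene below 0.5 for control over mutant at E18.5, at 0.492.

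Ttr, the thyroxine carrier, had the widest range. Its brightest probe set read 91 and 88 in E14.5 controls, 86 and 101 in E14.5 mutants, 1633 and 1604 in E18.5 controls and 208 and 248 in E18.5 mutants. The E14.5 pools overlapped below the minimum signal, the E18.5 mutants stood above them and the E18.5 controls far above those. The stage ratio was 18.1 (17.7 to 18.5) in controls and 2.43 (2.05 to 2.88) in mutants, both calls, and control over mutant at E18.5 was 7.10 (6.46 to 7.87). Since the E14.5 signals were low, the size depends on background: with 50 units added to every signal the stage ratio in controls was 11.98 and that in mutants fell under 2, to 1.93. The stage ratio in controls was 7.46 times that in mutants (6.15 to 9.04).

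The other 3 probe sets of Ttr kept the order of the E18.5 pools with other sizes. The first of them read 204 and 209, 207 and 199.7, 835 and 871, and 248 and 244 in the order of E14.5 controls and mutants and E18.5 controls and mutants, with ratios of 4.13 over time in controls, 1.21 in mutants and 3.47 for control over mutant at E18.5. Another read 48 and 44, 55 and 51, 1166 and 1139, and 158 and 166, which gave 25.2, 3.05 and 7.13. The last gave 15.9, 2.18 and 6.25. The stage ratio of controls thus ran from 4.13 to 25.2 between probe sets of 1 gene, and in mutants only the brightest met all criteria.

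**Figure D3:**
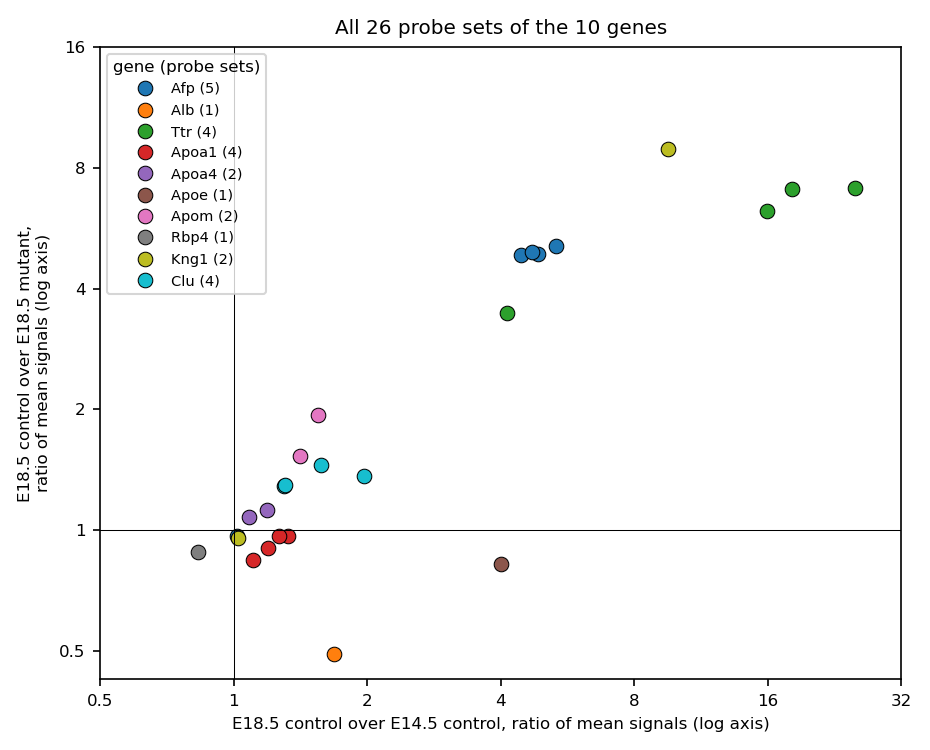
All 26 probe sets of the 10 genes, with the ratio of E18.5 control to E14.5 control on the horizontal axis and that of E18.5 control to E18.5 mutant on the vertical axis, both log axes of mean signal. Each point is 1 probe set, and colours mark genes. Probe sets of Afp, Ttr and Kng1 occupy the upper right, up to 25.2 and 8.93, Apoe and Alb lie below a vertical ratio of 1, and 1 probe set each of Afp and Kng1 lies near 1 on both axes.

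Rbp4, which carries retinol and travels bound to transthyretin, did not share the pattern of Ttr. It read 369 and 363 in E14.5 controls, 339 and 318 in E14.5 mutants, 299 and 309 in E18.5 controls and 369 and 323 in E18.5 mutants. All arrays exceeded the minimum and no comparison was called. The ratio of E18.5 to E14.5 was 0.832 in controls and 1.05 in mutants. Between genotypes, control over mutant came to 0.881 for the E18.5 pools and 1.11 for the E14.5 pools.

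Kng1, the kininogen, was measured above the minimum in 1 pool. Its brighter probe set read 48 and 47 in E14.5 controls, 42 and 41 in E14.5 mutants, 429 and 482 in E18.5 controls and 48 and 54 in E18.5 mutants. The ratio over time in controls was 9.55 (8.88 to 10.2), that in mutants 1.23, and control over mutant at E18.5 was 8.93 (7.95 to 10.03). With 50 units added to each signal these calls stood at 5.18 and 5.01, since 3 of the 4 pools were far below the minimum. The stage ratio in controls was 7.79 times that in mutants (6.81 to 8.91). The second probe set stayed between 116 and 157 on every array, below the minimum, with no difference between pools beyond the spread of duplicates. Mice carry a close paralog, Kng2, for which no probe set of its own was found, and these probes may read both genes.

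Among the apolipoproteins Apoe, a ligand of the LDL receptor family made by many cell types including macrophages, was higher at E18.5 in both genotypes. It read 176 and 196 in E14.5 controls, 280.5 and 216 in E14.5 mutants, 748 and 744 in E18.5 controls and 766 and 1047 in E18.5 mutants. All 4 arrays of E18.5 lay above all 4 of E14.5, and at each stage the mutant arrays lay above the control arrays. The stage ratio was 4.01 (3.79 to 4.26) in controls and 3.65 (2.73 to 4.85) in mutants, and the quotient of the 2 was 1.10 (0.782 to 1.56). Mutant over control was 1.22 (1.02 to 1.41) for the E18.5 pools and 1.34 (1.10 to 1.60) for the E14.5 pools, neither called. The neighbouring gene Apoc1 had stage ratios of 1.10 in controls and 1.22 in mutants.

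Clu, the extracellular chaperone clusterin, also called apolipoprotein J, was lower in mutants at both stages in each of its 4 probe sets, without overlap between the arrays of the 2 genotypes of a stage. The brightest read 1199 and 1271 in E14.5 controls, 929 and 621 in E14.5 mutants, 1460.4 and 1745 in E18.5 controls and 1074 and 1419 in E18.5 mutants. At the earlier stage control over mutant was 1.59 by this probe set and 1.41 to 1.85 over all 4, and at the later stage it was 1.29 and 1.29 to 1.45, none of them called. Its call over time in mutants came from 2 of the 4 probe sets. The dimmest read 391.7 and 437 in E14.5 mutants and 760.1 and 926 in E18.5 mutants, with a ratio of 2.03 (1.74 to 2.36), and another had 2.00. The brightest probe set and the remaining one, at 1.61 and 1.68, were not called. The call was lost without the second E18.5 mutant array and with 50 units added to each signal.

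Apom, which binds sphingosine 1-phosphate on high-density lipoprotein and is known to be made in liver and kidney tubule, was highest in E18.5 controls without passing the criteria. Its brighter probe set read 241 and 228 in E14.5 controls, 202 and 222 in E14.5 mutants, 341 and 321 in E18.5 controls and 218 and 214.5 in E18.5 mutants. Control over mutant at E18.5 was 1.53 (1.48 to 1.59), the stage ratio 1.41 (1.33 to 1.495) in controls and 1.02 in mutants. The second probe set read 172 and 204 in E18.5 controls and 100.2 and 94 in E18.5 mutants, a ratio of 1.94 (1.71 to 2.17). It reached the minimum on 1 array and on both arrays of no pool. Apoa1, the main protein of high-density lipoprotein, read 259.8 and 257 in E14.5 controls, 260.1 and 255 in E14.5 mutants, 360.3 and 325 in E18.5 controls and 368 and 340.2 in E18.5 mutants. Its stage ratios were 1.33 and 1.38 and its control over mutant ratios 0.968 for the E18.5 pools and 1.00 for the E14.5 pools, and none of its 4 probe sets was called. Apoa4, the intestinal apolipoprotein, lay between 153 and 179 by its brighter probe set and between 96 and 139 by the other, so no level above the minimum was measured.

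Lists of related genes were read beside the members. Their genes were also chosen with earlier results of these data known. Of 15 other apolipoproteins, 0 were called in any of the 4 comparisons, with a median log2 ratio of -0.12 over time in controls. Of 42 further plasma proteins secreted by hepatocytes 33 were measured, and 2 were called over time in controls and between genotypes at E18.5, Serpina6 and Serpinf2. Over all genes 4.75% were called higher over time in controls and 2.23% for control over mutant at E18.5. The counts of these lists lie near those shares and are not read as results about the lists. Serpina6, the corticosteroid carrier of plasma, read 67 on both E14.5 control arrays, 74 and 76 in E14.5 mutants, 1338 and 1427 in E18.5 controls and 69 and 69.8 in E18.5 mutants, with its peak in the E18.5 control pool like Afp and Kng1. Its ratio was 20.6 (19.9 to 21.3) over time in controls and 19.9 (19.2 to 20.7) for control over mutant. Serpinf2, the inhibitor of plasmin, had 2.24 and 2.28. In bulk RNA of whole kidneys, fewer cells of a type and less RNA per cell cannot be told apart.

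Markers of hepatocytes, the best known source of these proteins, were read on all arrays. Of 20 such markers 19 were measured, and 0 were called in any comparison. Their summed signal was 3639 to 3865 in E14.5 controls, 3669 to 3766 in E14.5 mutants, 3487 to 3745 in E18.5 controls and 3658 to 4022 in E18.5 mutants, and these ranges overlapped. On every array 10 of the 19 lay below the 40th percentile. Their count of 0 called lies near the share over all genes, at most 4.75% in any comparison and direction. Most of the 20 markers also stand in the lists above of other apolipoproteins or further plasma proteins. These lists are therefore not separate readings. The 3 fibrinogen chains, chosen after their values were seen, had no common direction over time. Stage ratios in controls and mutants were 2.31 and 2.89 for Fga and 1.32 and 1.31 for Fgb, both below the minimum on every array, and 0.684 and 0.744 for Fgg, which reached it on 6 arrays. Of 7 measured intestinal markers only Vil1, which the tubule brush border also has, was called, and of 9 adrenal and gonad markers 0 were. With at most 4.75% of all genes called in any comparison and direction, lists this short would hold few or no called genes anyway. Of 11 measured markers of visceral endoderm and yolk sac, which share many genes with the tubule and include Afp and Ttr, 6 were called higher in E18.5 control than in E18.5 mutant kidneys.

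Most proximal tubule markers were highest in E18.5 controls, as were Afp, Ttr and Kng1. Of 17 measured markers 16 were called higher over time in controls and 16 higher in control than in mutant kidneys at E18.5. Over time in mutants, where Ttr was called too, 1 of these markers (Aqp1) was called. Their summed signal was 33315 and 34201 on the E18.5 control arrays and between 2928 and 3556 on the other 6. Of the 11 genes for uptake of filtered protein, 8 were called higher over time in controls, with a median log2 ratio of 1.30, 1 in mutants and 5 for control over mutant at E18.5. Lrp2, the uptake receptor megalin, read 149 and 152 in E14.5 controls, 86 and 91 in E14.5 mutants, 2024 and 2059 in E18.5 controls and 99 and 104 in E18.5 mutants. Cubn, its partner cubilin, had 13.1 over time in controls and 22.9 for control over mutant. Fcgrt, the receptor that returns albumin to the circulation, was instead higher over time in both genotypes, at 2.43 and 2.09, with 0.972 for control over mutant at E18.5. Other compartments shared this order in part. Of 6 measured podocyte markers, 3 were called higher over time in controls and 3 for control over mutant at E18.5. Of 10 collecting duct and ureteric bud markers, 3 and 2 were called higher in these comparisons, and 1 lower in each. The order is thus not particular to the proximal tubule. What part the number of tubule cells had in the values of the members was not tested.

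Alb and Apoe were highest in the E18.5 mutants, as was the summed signal of macrophage markers. Other lists also had their highest single array in that pool, among them hepatocyte markers at 4022 and retinoid genes at 9576. The E18.5 mutant arrays of these 2 lists overlapped those of other pools. Of 12 such markers, C1qa, C1qb and C1qc were called higher over time in mutants, C1qc alone in controls, and 0 between genotypes. Their summed signal was 3914 and 4052 in E14.5 controls, 4323 and 3777 in E14.5 mutants, 4172 and 4901 in E18.5 controls and 5426 and 6273 in E18.5 mutants. C1qa, a subunit of the first complement component, read 299 and 316 in E18.5 controls and 469 and 602 in E18.5 mutants. Csf1r, the macrophage growth factor receptor, had a mutant over control ratio of 1.09 at E18.5. Macrophage markers were not alone in being higher in mutants at E18.5. The median log2 ratio of control over mutant was -0.77 for 9 nephron progenitor markers and -0.35 for the macrophage markers. Over time in mutants the 2 medians were -0.02 and 0.40. The part of macrophages in the values of Alb and Apoe was not tested.

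**Figure D4:**
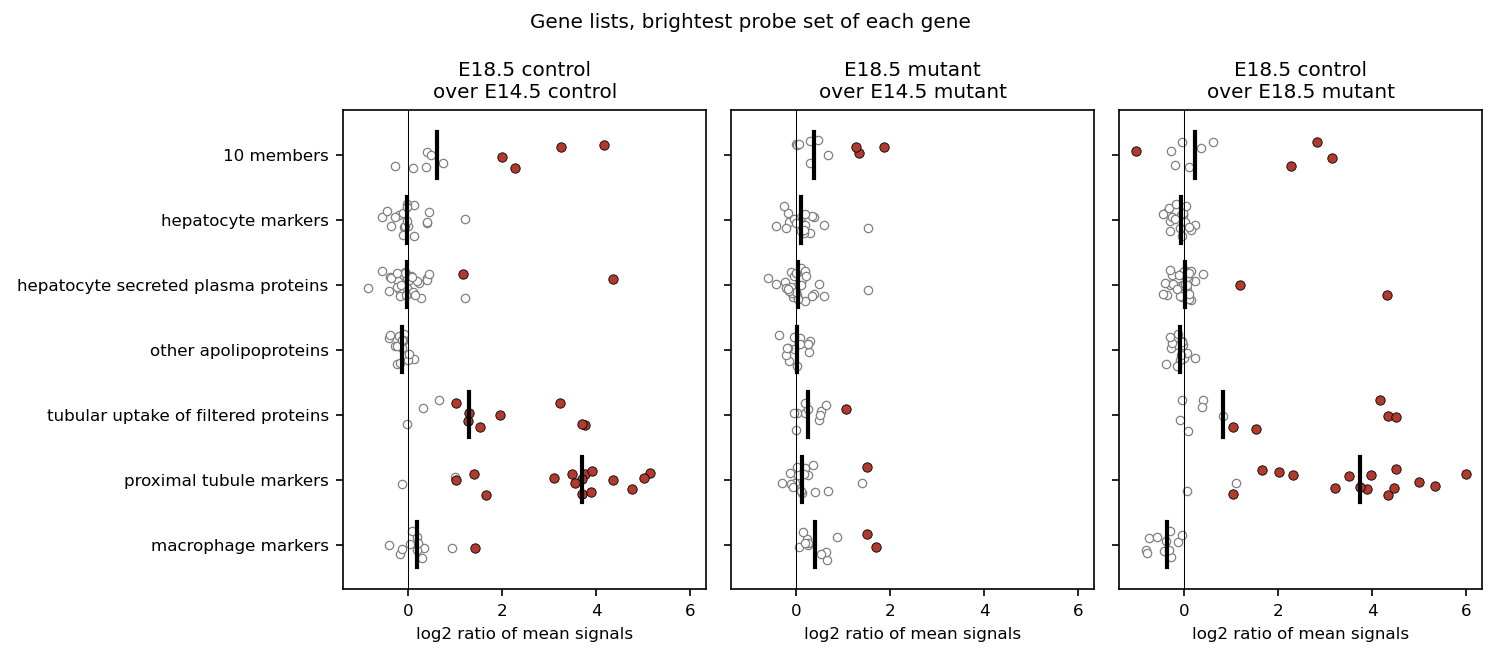
Log2 ratio of mean signals (horizontal axis) by brightest probe set for the 10 members and 6 lists of related genes, in 3 comparisons. Points are genes, filled points passed all criteria, and bars are list medians. The medians of hepatocyte markers and other apolipoproteins lie near 0 in all 3 panels, and those of the proximal tubule markers lie at 3.71 and 3.74 for E18.5 control over E14.5 control and over E18.5 mutant.

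The hepatocyte and tubule regulator Hnf4a, a nuclear receptor that binds many plasma protein genes in liver, was called by 2 of its probe sets. One read 528 and 545 in E14.5 controls, 249 and 264 in E14.5 mutants, 1449.9 and 1512 in E18.5 controls and 307 and 277 in E18.5 mutants. Its ratios were 2.76 (2.66 to 2.86) over time in controls, 5.07 (4.73 to 5.46) for control over mutant in the E18.5 pools and 2.09 (2.00 to 2.19) in the E14.5 pools. The other called probe set had 4.94 (3.96 to 6.50) over time in controls and 16.2 (14.3 to 18.6) for control over mutant in the E18.5 pools. In the E14.5 pools it read 148 and 236 in controls and 33 and 34 in mutants. It was not called there because the first control array lay below the minimum signal. The brightest Hnf4a probe set was not called in any comparison. Of the 14 regulators measured, Cebpb was the other gene called, at 2.04 over time in controls.

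By their means in the 4 pools, each centred on its own average on the log2 scale, the genes nearest to each member were sought among 13433 others. Those nearest to Afp were Rida, Fmo1 and Pla1a, at distances of 0.117 to 0.137. Those nearest to Kng1 were Sod3, Cyp2d26 and Kap, at 0.0906 to 0.26. Ttr was nearest to Aqp1, Aqp2 and Gpx3, at 0.353 to 0.628, where Aqp1 and Aqp2 are water channels of the proximal tubule and the collecting duct. Alb was nearest to Smoc2, Aldh1a3 and C1qa, at 0.156 to 0.275, and Apoe to Col15a1, Nts and Penk, at 0.119 to 0.199. Clu was nearest to Osr2, Sgms1 and Ppm1h, at 0.164 to 0.172. For Apoa1, Apoa4, Apom and Rbp4, whose signals varied little, the nearest 3 lay within 0.0398. A pattern over 4 pools has few values, and closeness in it is a description.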

How the data were processed

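Total RNA of pooled kidneys was hybridised to 8 Affymetrix whole-genome mouse arrays, 2 per pool. The deposited values are linear signal intensities, 1 for each of 45101 probe sets and array. By the paper's account the arrays were scaled in Microarray Suite and then normalized in dChip, a program for model-based values, by its invariant-set procedure. The array medians found here, 225 to 243, differ from the median the paper states after normalization. The reason is not given in the sources used here. Detection calls and raw probe intensities were left out. Precision is limited by having 1 RNA pool per condition, since the 2 arrays of a pool share the same RNA. The platform annotation gave 34958 probe sets 1 gene, 932 several and 9211 none, and 34754 were matched to current mouse symbols by identifier. Only probe sets with 1 gene were named.

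Ratios of pool means, the calls, list counts and distances (1 added to each signal) were computed with pandas 2.3.3 and numpy 2.4.6 in Python 3.11.15, and figures were drawn with matplotlib 3.10.9. With 1 RNA pool per condition no test could be made, although the study's criteria of size were followed, with a minimum signal in place of detection calls. The calling steps were run on simulated data with capped noise between arrays and with changes placed only in probe sets of at least median signal. That run says nothing about calls at low signals or at a wide spread of duplicates. A gene counted as called by any of its probe sets, and medians used the brightest. Members, lists and rules were chosen with earlier results of these data known. Named genes are the members, Lhx1, from each list the 4 of highest signal and, among called genes, the 2 highest and 2 lowest ratios, and for each member the 3 nearest genes. The fibrinogen chains were named outside this rule. Alternatives were median scaling, quantile normalization, 50 units added to each signal, geometric means, other thresholds and minimum signals, no criterion on duplicates, the brightest probe set only, and each array left out.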

Additional observations from a re-analysis of the deposited data

Results flagged for a closer look

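In 3 cases all arrays of a contrast lay on opposite sides in the 2 stages or genotypes. The difference between the contrasts was not tested in any of them, since each pool is 1 sample. For 1 dim probe set of Ttr, control over mutant was 0.861 in the E14.5 pools, which lay below the minimum signal, and 7.13 in the E18.5 pools. For the dimmer probe set of Apom, the later over the earlier stage was 1.55 in controls and 0.919 in mutants. That probe set reached the minimum signal on both arrays of no pool. For Rbp4, control over mutant was 1.11 in the E14.5 pools and 0.881 in the E18.5 pools.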

How the results depend on the processing

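Of 112 counts of called members recomputed under the alternatives, 104 stayed within 1.5 times. Of 320 member ratios by brightest probe set, 303 moved by less than 1 SD of the duplicates, 17 moved more and 0 called ratios turned direction. Leaving out 1 array of a pool moves a ratio by less than this SD by construction. For those settings the measure therefore says nothing about stability. The count of members lower in E18.5 control than mutant kidneys, 1 (Alb), was 0 with median scaling, 0 with 50 units added and 0 at a threshold of 3-fold, and ranged from 0 to 1 when single arrays were left out, with 0 without the first E18.5 control or the second E18.5 mutant array. The count higher over time in mutants, 4, was 2 (Alb and Apoe) with 50 units added and 1 (Apoe) at 3-fold. It was 3 with the minimum at the 50th percentile (without Ttr), and 3 by brightest probe set only and without the second E18.5 mutant array (both without Clu). Clu was also called over time in controls with median scaling, without the first E14.5 control array and without the first E18.5 control array, and Apom between genotypes at E18.5 without the latter. That higher in control than mutant kidneys at E14.5, 0, was 1 (Clu) at a threshold of 1.5-fold. A stricter or looser threshold changes counts by its construction. The added 50 units shrink ratios of low signals by construction, and for the other settings the cause was not tested. No paired analysis was possible because array numbers mark technical duplicates of 1 RNA pool and no test was made. Signals below the minimum limit the sizes given for Kng1 and Ttr.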

Other observations

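Retinoid genes, read because RBP4 carries retinol, were called in both directions over time, and 1 was called between genotypes. Of 14 measured genes, Aldh1a3, an enzyme that makes retinoic acid, read 483 and 501 in E14.5 controls, 788 and 723 in E14.5 mutants, 813 and 785 in E18.5 controls and 1946 and 2050.4 in E18.5 mutants. Its stage ratio in mutants was 2.64, a call, and mutant over control was 2.50 at E18.5, a call in the direction of Alb. Dhrs3, a retinaldehyde reductase, was called higher over time in controls, at 2.16. Crabp2, a cellular carrier of retinoic acid, was called lower over time in both genotypes, at 0.42 in controls and 0.436 in mutants, and Crabp1 in mutants, at 0.37.

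Of 11 measured kinin genes beside Kng1, the peptidases Ace and Mme were called higher in E18.5 control kidneys than at E14.5 and than in E18.5 mutants. Mme, neprilysin, had 4.49 and 5.66, and Ace, the angiotensin-converting enzyme, 2.40 and 2.43 by a dimmer probe set, while its brightest, at 1.13 and 1.20, was not called. Klk1, the tissue kallikrein that cuts kininogen, was called in the same comparisons by its dimmer probe sets, with ratios of 13.9 and 11.3 for 1 of them, while its brightest was not, and its multigene family leaves the source of the signal uncertain. Of 15 measured genes of lipoprotein uptake and lipid transfer, Lpl, lipoprotein lipase, had control over mutant of 2.50 at E18.5 and Lrpap1, a chaperone of megalin, 2.57. Pltp, which moves phospholipids between lipoproteins, was called higher over time in both genotypes, at 2.52 and 2.44, as was Apoe, but by a dimmer probe set, while its brightest was at 1.05 and 1.06.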
